A study of Mus musculus with 45 samples.

Results

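Interferon-stimulated genes were examined as a group of 40 members in the chromatin of Ter119+ mouse erythroblasts with an intact or a deleted Stag2 gene. The members were chosen by name, from genes known to be switched on by interferon, and all 40 occurred among the 24333 genes of the deposited gene score table. They comprised 11 RNA sensors and related enzymes, 16 antiviral effectors, 6 genes around ISG15, ubiquitin and ADP-ribose, 5 genes of antigen presentation, and 2 genes of signalling and chemokine output (Stat2 and Cxcl10).

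The product of Stag2 is part of cohesin, which holds DNA in rings and shapes chromatin loops. Of the 45 samples of the series, 6 were used here: the ATAC libraries, which measure chromatin accessibility in single nuclei, of sorted Ter119+ erythroblasts (red cell precursors) from WT and KO mice, 3 libraries of each genotype. Mice of both genotypes had received pIpC, and the cells were taken 6 to 8 weeks later. The labels used here name no Cre driver, strain, sex or age of the mice, and do not say whether each library came from a separate animal, so p-values measure the spread between libraries.

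Interferons bind receptors that act through JAK kinases and STAT proteins, and the complex they activate binds the interferon-stimulated response element in promoters of its target genes. The products of these genes sense foreign RNA, degrade or sequester it, block virus entry and assembly, and present antigen. The compound pIpC is itself a double-stranded RNA analogue that induces interferon, and Ifih1 (MDA5) is among its sensors. In haematopoiesis, interferon signalling is known for its effects on stem and progenitor cells.

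The gene score sums ATAC fragments around a gene and was scaled by the authors to the same total in each nucleus. It is a measure of accessibility and not of expression, and neighbouring genes share fragments. Library means are given here on a scale where all genes sum to 1000000, and values are listed in the order of libraries 1, 2 and 3. A mean over nuclei cannot tell more nuclei with an open gene from more fragments per open nucleus. The libraries held 5819 to 6990 WT and 4617 to 4925 KO nuclei, with median fragments per nucleus of 7123 to 8056 and 7742 to 8874. The Int nuclei of KO libraries were deeper (13911 to 14998 against 10121 to 12877 median fragments), and the percent of fragment ends in peaks was 57.4 to 59.9 in KO and 62.2 to 64.7 in WT (exact permutation p = 0.1 for each, the smallest that 3 against 3 libraries allow; adjusted p = 0.23 over 7 measures). Of all nuclei, 1478 (4.34%) carried a barcode that occurred in another library as well. The summed score of 8 erythroid markers was 1572 to 1692 in WT and 1377 to 1500 in KO. Summed neutrophil markers (6 genes) lay at 53.4 to 57.4 and 66.7 to 71.1, B cell markers (5) at 56.8 to 61.3 and 64.2 to 69.6, T and NK cell markers (5) at 18.4 to 22.003 and 24.4 to 28.0, megakaryocyte markers (4) at 171 to 199 and 207 to 218 (Itga2b lay above WT in KO and Gp9 below), plasmacytoid dendritic cell markers (3) at 71.5 to 73.6 and 55.3 to 59.4 (Ccr9 alone was lower in KO, while Siglech and Flt3 lay above WT), and macrophage and monocyte markers (10) at 263 to 284 and 269 to 279. Cd68 made up most of that last sum; Adgre1, Csf1r, Mertk and C1qb lay above all WT libraries in every KO library and Ccr2 below. Many of these markers scored low, and genes with low scores were in general more often higher in KO libraries, as given below. No marker was at 0 in any library, and the part of these differences in the results below was not tested. Stag2 itself had scores of 64.2, 65.7 and 65.9 in WT and 61.0, 65.1 and 62.4 in KO (log2 change -0.05, adjusted p = 0.35), and a sum over a gene does not check a deletion within it.

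Promoter windows were looked up first, because the members are defined by a response that acts through a DNA motif. RefSeq windows of GRCm38.p6, from 250 bases before to 50 after the start site, were found for 31 of the 40 members; Oas2, Mx1, Mx2, Usp18, Dhx58, Parp9, Parp14, Zbp1 and Nlrc5 had none. The interferon-stimulated response element, searched on either strand as GAAA, any 2 bases and GAAA again, was present in 16 of these 31 windows (51.6%) and in 3.44% of all 32851 windows of the same length. The gamma-activated site, searched as TTCNNNGAA, was present in 9 (29.0%) and in 8.30% of all windows. The erythroid GATA motif AGATAA was present in 3 (9.68%) and in 11.2% of all windows. A match is a description of the letters and not of a bound site. The windows of 4 members that rose in KO libraries and 4 that fell are printed 5′ to 3′ with the response element in capitals, since they show that both directions occurred with and without the motif. They lie at chr5:114896684-114896983 (Oasl2, plus strand), chr5:120907476-120907775 (Oas1a, minus), chr3:142620413-142620712 (Gbp2, plus), chr5:92348840-92349139 (Cxcl10, minus), chr12:26468965-26469264 (Cmpk2, plus), chr19:34640639-34640938 (Ifit1, plus), chr17:78882523-78882822 (Eif2ak2, minus) and chr2:62646206-62646505 (Ifih1, minus).
Oasl2: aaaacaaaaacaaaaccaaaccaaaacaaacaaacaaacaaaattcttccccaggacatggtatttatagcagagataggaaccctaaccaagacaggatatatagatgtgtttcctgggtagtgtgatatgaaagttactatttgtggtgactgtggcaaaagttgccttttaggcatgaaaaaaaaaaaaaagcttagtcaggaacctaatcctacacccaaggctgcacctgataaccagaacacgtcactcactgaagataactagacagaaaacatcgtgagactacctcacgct
Oas1a: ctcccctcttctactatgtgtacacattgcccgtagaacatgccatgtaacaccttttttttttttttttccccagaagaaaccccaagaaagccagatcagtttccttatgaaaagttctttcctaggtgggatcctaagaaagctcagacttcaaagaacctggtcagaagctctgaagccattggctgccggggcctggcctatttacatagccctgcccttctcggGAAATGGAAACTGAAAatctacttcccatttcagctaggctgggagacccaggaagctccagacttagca
Gbp2: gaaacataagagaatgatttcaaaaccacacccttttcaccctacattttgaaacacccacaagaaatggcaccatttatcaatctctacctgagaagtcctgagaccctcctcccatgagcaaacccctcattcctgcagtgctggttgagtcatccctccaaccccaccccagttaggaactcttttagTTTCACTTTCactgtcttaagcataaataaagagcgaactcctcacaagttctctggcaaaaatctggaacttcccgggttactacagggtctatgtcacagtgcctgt
Cxcl10: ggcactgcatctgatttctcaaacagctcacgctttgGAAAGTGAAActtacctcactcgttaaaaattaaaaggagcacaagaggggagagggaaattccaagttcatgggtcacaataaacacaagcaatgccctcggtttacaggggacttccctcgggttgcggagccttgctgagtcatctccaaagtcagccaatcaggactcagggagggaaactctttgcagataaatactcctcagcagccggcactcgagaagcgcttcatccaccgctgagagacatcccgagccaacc
Cmpk2: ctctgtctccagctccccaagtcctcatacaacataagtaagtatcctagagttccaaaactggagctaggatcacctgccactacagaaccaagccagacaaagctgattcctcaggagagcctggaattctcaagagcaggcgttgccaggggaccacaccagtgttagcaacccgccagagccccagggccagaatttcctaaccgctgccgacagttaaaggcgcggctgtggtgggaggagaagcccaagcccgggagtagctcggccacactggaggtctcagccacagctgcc
Ifit1: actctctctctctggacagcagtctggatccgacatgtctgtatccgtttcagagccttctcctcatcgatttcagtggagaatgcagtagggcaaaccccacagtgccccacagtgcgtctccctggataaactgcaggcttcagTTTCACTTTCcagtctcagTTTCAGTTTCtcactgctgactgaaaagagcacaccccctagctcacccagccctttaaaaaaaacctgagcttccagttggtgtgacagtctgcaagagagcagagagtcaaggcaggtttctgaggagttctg
Eif2ak2: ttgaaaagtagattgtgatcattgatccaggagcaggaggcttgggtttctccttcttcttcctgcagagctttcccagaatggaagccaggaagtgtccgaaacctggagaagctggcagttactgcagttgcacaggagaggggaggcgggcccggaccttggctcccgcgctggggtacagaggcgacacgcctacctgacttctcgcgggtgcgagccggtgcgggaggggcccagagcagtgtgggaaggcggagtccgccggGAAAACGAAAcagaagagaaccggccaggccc
Ifih1: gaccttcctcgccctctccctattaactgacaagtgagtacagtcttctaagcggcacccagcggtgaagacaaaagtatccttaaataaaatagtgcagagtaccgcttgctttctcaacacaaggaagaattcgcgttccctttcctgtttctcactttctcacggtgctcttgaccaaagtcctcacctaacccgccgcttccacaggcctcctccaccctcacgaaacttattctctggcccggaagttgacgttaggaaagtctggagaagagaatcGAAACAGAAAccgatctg

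In the Oas1a window, 2 overlapping matches began 20 and 14 bases before the start site, and in the Ifit1 window 2 separate matches began 104 and 85 bases before it. Gbp2 had its match 59 bases and Cxcl10 213 bases before the start site, while those of Eif2ak2 and Ifih1 began 18 and 32 bases after it. The members with the largest rise (Oasl2) and the largest fall (Cmpk2) had no match in this window. Of the 15 tested members with the motif, 7 were higher and 4 lower in KO libraries in the test described next. Of 14 tested members whose window lacked it 6 were higher and 1 lower, and of 9 without a window 5 and none. The median log2 changes of these groups were 0.15, 0.10 and 0.34. Of all genes tested, 29.1% were higher and 14.2% lower. Oas1a and Gbp2 (with the motif) and Mx1 and Mx2 (no window) entered that test through their KO values, so that they had to differ. The windows of Psmb9 and Tap1, both without the motif, overlap.

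The first comparison asked which interferon-stimulated genes gained or lost accessibility in KO erythroblasts. Accessibility moved in both directions. Oasl2, Oas1a, Mx1, Xaf1, Zbp1, Gbp2, Psmb8, Cxcl10 and Mx2 were higher in KO libraries by 0.58 to 1.37 on the log2(score + 1) scale, which understates changes of low scores. Cmpk2, Eif2ak2, Rsad2, Ifit1 and Ifih1 were lower by 0.25 to 0.50. In all, 18 of 38 tested members were higher and 5 lower (limma, adjusted p under 0.05 over all genes), where 29.1% of all 17682 genes tested were higher and 14.2% lower. As shares of the tested members these were 47.4% and 13.2%. Genes had to average 5 or more across libraries to be tested, which left out Ifit3 and Ifi44. Gbp2, Mx2, Oas1a and Mx1 had WT means of 3.61 to 4.39 and passed through their KO values, so that they had to differ. With no filter, 17 of 40 members were higher and 5 lower, beside 25.9% and 9.64% of 24032 genes. The libraries of the groups did not overlap for 17 members above and 8 below WT, beside 36.1% and 19.3% of all genes. The median log2 change was 0.13 over the members and 0.10 over all genes. Centring each library on its median moved the median of all genes to -0.05, and 12 members were then higher and 12 lower, beside 17.1% and 31.2% of all genes. After quantile normalization and after cyclic loess 17 members were higher and 6 lower, beside 14.4% and 16.3%, and 15.999% and 13.6%, of all genes. The share of all calls that were higher was 67.1% as first fitted, and 35.4%, 46.9% and 54.0% under these scalings. Every one of the 23 calls kept its sign under these 3 scalings. Of the 23, Xaf1, Cxcl10, Parp14, Cmpk2, Rsad2 and Ifit1 (6 members) passed under every alternative run. Another 5, Oasl2, Oas1a, Mx1, Zbp1 and Gbp2, passed wherever they were tested but were too low for a filter at a mean of 20, and Oas1a was also under the filter of 5 without KO library 2. Weighting nuclei by fragments ended the calls of Ifih1 (-0.16), Eif2ak2 (-0.24), Mx2, Psmb8, Psmb9, B2m, Oas3, Oasl1, Gbp3 and Nlrc5.

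**Figure D1:**
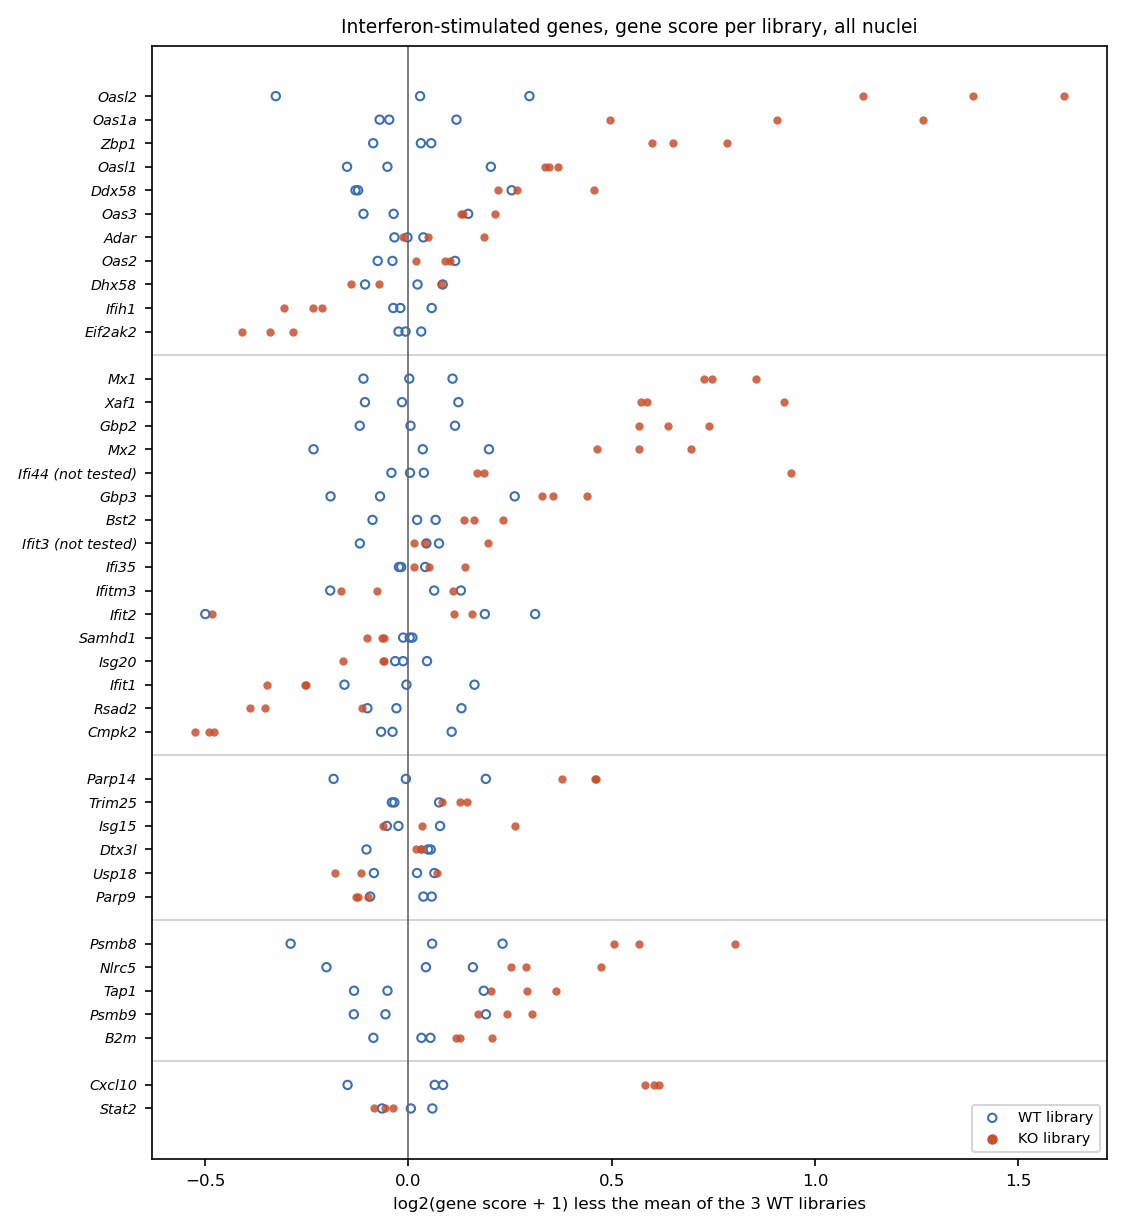
Each row is a member, grouped as sensors, effectors, modifiers, antigen presentation, and signalling and chemokine; the x axis gives log2(gene score + 1) less the mean of the 3 WT libraries, with open points for WT and filled points for KO libraries. Oasl2 stands farthest to the right and Cmpk2 farthest to the left, without overlap between genotypes.

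Among the RNA sensors, 5 of 11 were higher and 2 lower (45.5% and 18.2%), beside 29.1% and 14.2% of all genes. Oasl2, of the oligoadenylate synthetase-like family, scored 11.4, 9.31 and 7.06 in WT and 25.5, 29.9 and 21.0 in KO libraries (log2 change 1.37, SE 0.15, adjusted p = 1.46e-06). The lowest KO library was well above the highest WT library. Oas1a, an oligoadenylate synthetase that activates RNase L, scored 3.39, 3.999 and 3.46 in WT and 7.63, 10.1 and 5.49 in KO (0.89, SE 0.15, adjusted p = 0.00019). KO library 2 was the highest for both genes, and neither showed overlap. Oas1a passed the filter through its KO values, so that it had to differ, and the count of 5 higher sensors includes it. Zbp1, a sensor of Z-form nucleic acid that can trigger cell death, scored 10.4, 10.6 and 9.50 in WT and 18.2, 15.9 and 16.5 in KO (0.68, SE 0.11, adjusted p = 9.97e-05). Its KO libraries lay close together and apart from WT.

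Oasl1 and Oas3 rose by smaller amounts, 0.35 and 0.16, and neither passed after median centring. Oasl1 did not pass after quantile normalization or cyclic loess either, and its change went down to 0.08 over the settings run. The KO and WT libraries of Oas3 overlapped. The cytosolic receptor Ddx58 (RIG-I) had a log2 change of 0.31 with an adjusted p of 0.051 and did not pass. Against these, Ifih1 scored 64.9, 61.5 and 60.7 in WT and 50.3, 52.8 and 53.7 in KO (log2 change -0.25, SE 0.05, adjusted p = 0.00095). Eif2ak2 (PKR), the kinase that stops translation on sensing double-stranded RNA and belongs to the same family as the haem-regulated kinase of red cell precursors, scored 24.8, 25.8 and 25.1 in WT and 20.6, 19.7 and 18.8 in KO (-0.34, SE 0.08, adjusted p = 0.0038). For both, all KO libraries lay below all WT libraries. Oas2, Dhx58 (a regulator of RIG-I and MDA5) and Adar (an RNA-editing enzyme) had changes of 0.07, -0.04 and 0.07 and did not pass.

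The antiviral effectors held both the interferon-induced GTPases, which rose, and the neighbouring pair Cmpk2 and Rsad2, which fell. Of 14 tested effectors 6 were higher and 3 lower (42.9% and 21.4%), beside 29.1% and 14.2% of all genes. The 6 include Mx1, Mx2 and Gbp2, which passed the filter only through their KO values. The share of higher effectors can therefore not be read as an excess. Mx1, a GTPase that traps viral nucleocapsids, scored 3.98, 4.38 and 4.79 in WT and 8.72, 8.02 and 7.89 in KO (log2 change 0.78, SE 0.11, adjusted p = 3.41e-05). Mx2 scored 3.44, 4.99 and 4.35 in WT and 6.74, 7.46 and 6.21 in KO (0.58, SE 0.12, adjusted p = 0.0014). Neither GTPase showed overlap between genotypes, but both passed the filter through their KO values, so that they had to differ. Gbp2, a guanylate-binding protein acting on pathogen membranes, scored 3.9999, 4.39 and 3.59 in WT and 7.31, 6.75 and 6.38 in KO (0.65, SE 0.11, adjusted p = 0.0002). Xaf1, a partner of the apoptosis inhibitor XIAP, scored 20.9, 18.9 and 17.7 in WT and 28.9, 37.2 and 29.2 in KO (0.69, SE 0.10, adjusted p = 4.12e-05). Both were apart, but Gbp2 also passed the filter through its KO values, so that it had to differ. For Xaf1 it was again KO library 2 that was highest. Gbp3 (0.37) and Bst2 (tetherin, 0.18) were the other effectors that rose. Gbp3 did not pass after quantile or loess normalization, nor Bst2 after median centring (0.03) or without the variance trend.

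Cmpk2, a mitochondrial nucleotide kinase, scored 139, 126 and 123 in WT and 92.5, 89.5 and 91.6 in KO (log2 change -0.50, SE 0.05, adjusted p = 4.09e-07). The KO libraries differed from each other by far less than they did from WT. Rsad2 (viperin), which starts 12763 bases from Cmpk2 and makes a chain-terminating nucleotide, scored 109, 97.4 and 92.6 in WT and 77.6, 91.8 and 75.7 in KO (-0.29, SE 0.07, adjusted p = 0.0027). KO library 2 came within 1 unit of WT library 3. Ifit1, which binds RNA lacking the host cap methylation, scored 84.6, 67.6 and 75.2 in WT and 59.1, 63.3 and 63.2 in KO (-0.28, SE 0.06, adjusted p = 0.0021), all KO libraries being lower. Ifit2 did not pass: its scores of 29.4, 16.3 and 26.9 in WT and 25.5, 16.5 and 26.3 in KO were low in library 2 of both genotypes. Ifi44 was below the filter at 3.12, 3.02 and 2.90 in WT and 3.56, 6.71 and 3.51 in KO, with KO library 2 far above the rest. Ifit3 lay between 0.85 and 1.31 in every library, and Ifitm3, Samhd1, Isg20 and Ifi35 had changes of -0.10 to 0.07 that did not pass.

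All 5 genes of antigen presentation were higher in KO libraries, beside 29.1% of all genes. They are not 5 separate observations, since Tap1 lies 226 bases from Psmb9 and 970 from Psmb8 and such neighbours share fragments. Psmb8, a catalytic subunit of the immunoproteasome, scored 12.3, 14.0 and 9.43 in WT and 21.3, 17.9 and 17.1 in KO (log2 change 0.63, SE 0.13, adjusted p = 0.0011). Its genotypes did not overlap. Nlrc5, the transactivator of class I genes, rose by 0.34, the peptide transporter Tap1 by 0.29, the immunoproteasome subunit Psmb9 by 0.24 and the class I light chain B2m by 0.15; the WT and KO libraries of Psmb9 overlapped. Their signs held under each scaling, but Tap1, Psmb9 and B2m did not pass after median centring, nor Nlrc5 after quantile or loess normalization.

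The chemokine gene Cxcl10, which attracts T cells, scored 28.7, 28.3 and 24.3 in WT and 42.0, 40.9 and 41.6 in KO (log2 change 0.60, SE 0.07, adjusted p = 6.89e-06). Every KO library was above every WT library by over 12 units. The transcription factor Stat2 had a change of -0.06 and did not pass. Of the 6 modifiers, only Parp14, an ADP-ribosyltransferase, passed, with 25.3, 29.1 and 22.3 in WT and 35.3, 33.3 and 35.4 in KO (0.43, SE 0.09, adjusted p = 0.00087). Isg15, the ubiquitin-like protein that names the class, scored 275, 251 and 256 in WT and 250, 313 and 267 in KO, its libraries overlapping (0.08, adjusted p = 0.34). Usp18 (which removes ISG15), Trim25, Parp9 and Dtx3l did not pass either. The calls of 5 members depended on single libraries: leaving out WT library 3 ended those of Oas3, Oasl1, Gbp3, B2m and Nlrc5 and brought the count of higher members to 13 (of all genes, from 29.1% to 22.5%), and leaving out other libraries ended each of them too (KO library 1 for Oasl1, Gbp3, B2m and Nlrc5, KO library 2 for Oas3, Oasl1 and Gbp3, KO library 3 for Oasl1, WT library 1 for Gbp3 and WT library 2 for Oas3). In those fits their changes were 0.10 to 0.14 (Oas3), 0.27 to 0.36 (Oasl1), 0.28 to 0.38 (Gbp3), 0.11 to 0.12 (B2m) and 0.24 to 0.27 (Nlrc5).

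Genes with low scores were more often higher in KO libraries, so members were set beside genes of like level, in 10 bins of equal size by mean log2 score. Over the lower 5 bins, 43.0% of all genes were higher and 1.84% lower, and over the upper 5 bins 15.2% and 26.6%. Of the 16 members in the lower bins 11 were higher and 1 lower (median change 0.47, all genes 0.25). Without genes whose WT mean was under 5, which removes Oas1a, Mx1, Mx2 and Gbp2, 7 of 12 members (58.3%) were higher and 1 lower (median 0.34), beside 41.1% and 2.01% of all such genes (median 0.24); this count was added after the values were seen. Of the 22 in the upper bins 7 were higher and 4 lower (median 0.05, all genes -0.05). Set against the median of its own bin, the change of Oasl2 remained 1.11, of Oas1a 0.63, of Cxcl10 0.57, of Mx1 0.52, of Xaf1 0.51, of Zbp1 0.41, of Parp14 0.40, of Gbp2 0.39 and of Psmb8 0.36. It was -0.53 for Eif2ak2, whose bin had a median above 0, -0.42 for Cmpk2, and -0.21 to -0.22 for Ifih1, Ifit1 and Rsad2. Gbp3, Oasl1 and Nlrc5 exceeded their bins by 0.10, 0.09 and 0.07. Over the 38 tested members, 24 lay above and 14 below the median of their bin, and 6 (15.8%) differed from it by over 0.5, as did 4.08% of all genes. Without the 4 that passed the filter through their KO values, 20 of 34 lay above, and 4 (11.8%) differed by over 0.5.

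**Figure D2:**
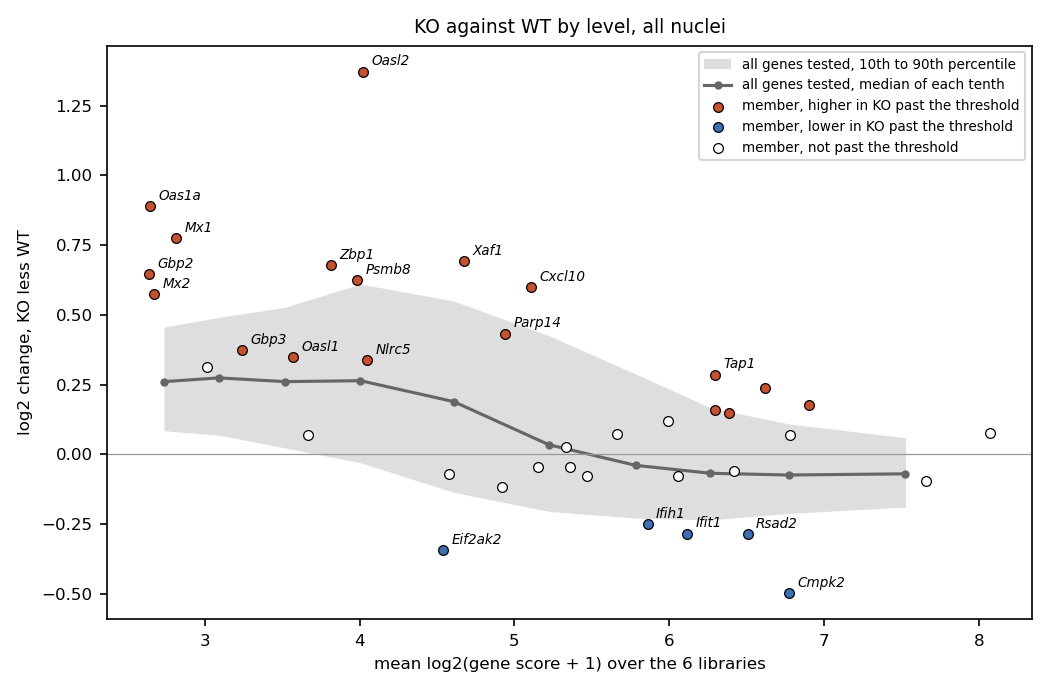
The x axis gives the mean log2(gene score + 1) over the 6 libraries and the y axis the log2 change of KO less WT, with the line for the median and the grey band for the 10th to 90th percentile of each bin of all genes tested, and points for members. The line falls from above 0 to below 0 with the level; 14 members lie above the band, Oasl2 farthest, of which 4 passed the filter through their KO values, and 5 lie below it (Eif2ak2, Ifih1, Ifit1, Rsad2 and Cmpk2).

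Members were also set beside their neighbours. Of the 23 members past the threshold, 21 had a tested gene within 100 kb that also passed and moved the same way, and for 13 such a gene moved further (91.3% and 56.5%). Of all 7661 genes past the threshold, 76.2% had such a neighbour and 51.1% one that moved further. The class I processing genes Psmb8, Psmb9 and Tap1 lie in the major histocompatibility complex (Psmb8 at chr17:34198195-34201454, mm10), within 100 kb of the class II genes H2-Ab1 (1.25) and H2-Eb1 (0.93). Bst2 (chr8:71534259-71537437) rose by 0.18, and 12 of its 15 tested neighbours rose by more, Tmem221 by 1.03; the other 3 did not pass. Nlrc5 (chr8:94472763-94527272) rose less than 9330175E14Rik (1.24), which starts 37660 bases upstream of these coordinates. In GRCm38.p6, however, Nlrc5 itself begins further upstream than that, so the start of 9330175E14Rik lies within it. Mir7072 (0.47), the other tested neighbour of Nlrc5 that rose, overlaps it too. Whether either rise is separate from Nlrc5 was not tested, and the counts above include Nlrc5. Xaf1 (chr11:72301629-72313733) rose about as much as Fbxo39 (0.73), which lies 711 bases away. In the guanylate-binding protein cluster, Gbp2 (chr3:142620663-142638008) rose by 0.65 and its 6 tested neighbours by 0.37 to 0.45. Of the 6 tested neighbours of Cxcl10, 4 rose, by 0.32 to 0.46, and 0 fell, and Art3 (0.45) overlaps it. Both tested neighbours of Mx1 rose, Bace2 (0.64) lying 8023 bases away. Of the 4 tested neighbours of Zbp1, 3 rose and 0 fell, Pmepa1 (0.39) lying 5543 bases away.

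At some other members the neighbours differed in direction or size. Oasl2 (chr5:114896934-114912245) rose by 1.37; of its 9 tested neighbours 5 rose, by 0.18 to 0.35 with Oasl1 the highest, and 1 fell. Cmpk2 (chr12:26469215-26479837) and Rsad2 (chr12:26442743-26456452) fell, but Rnf144a and Mir6538, 53953 and 54205 bases from Cmpk2, rose by 0.47 and 0.49. Ifih1 (chr2:62595793-62646255) fell between Fap, which fell by 0.41, and Gca, which rose by 0.60. Ifit1 (chr19:34640889-34650009) fell together with its copies Ifit1bl1 (-0.24) and Ifit1bl2 (-0.50), and fragments of such copies may be split between them.

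**Figure D3:**
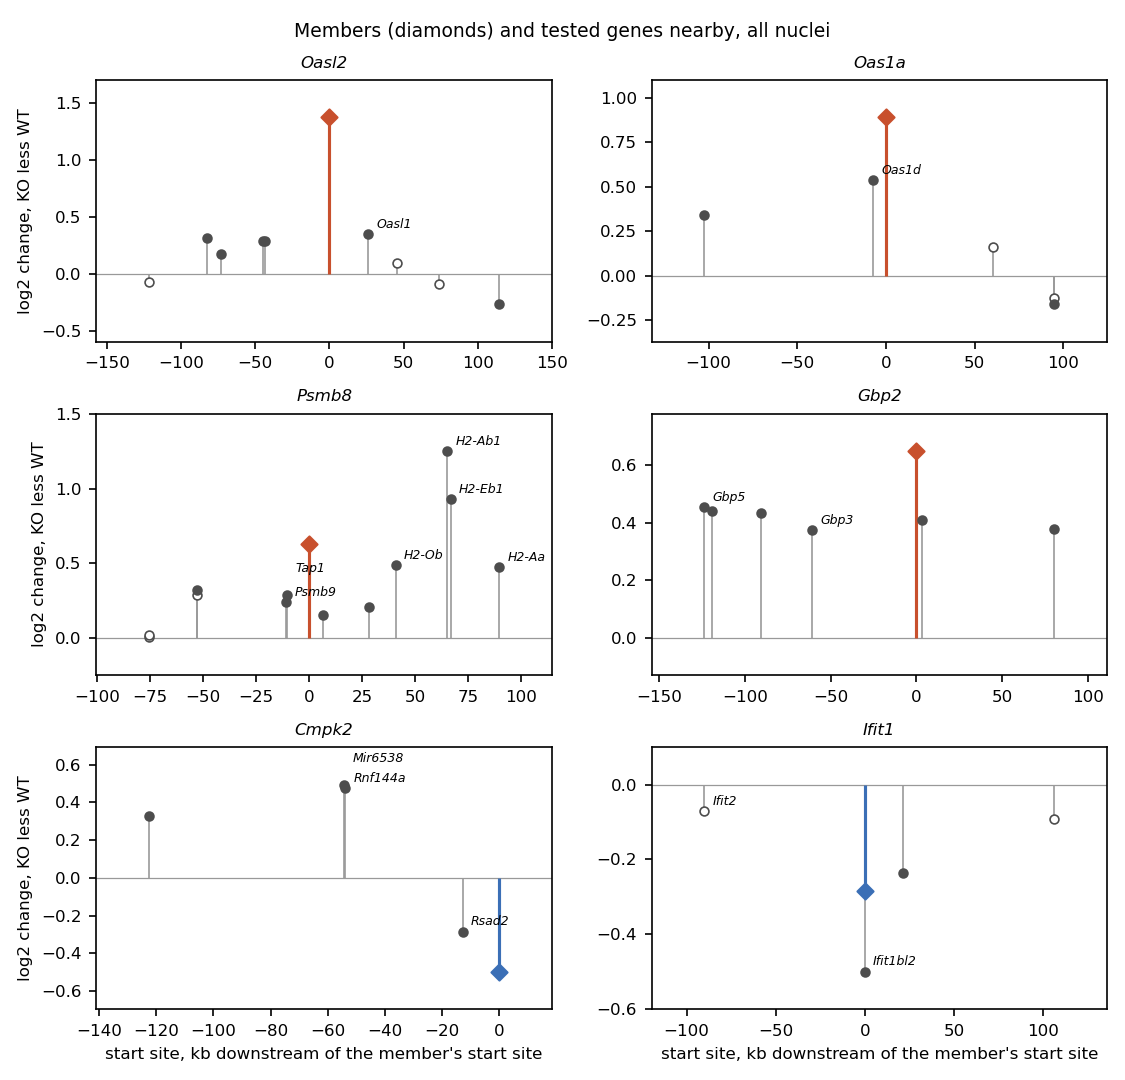
For 6 members (diamonds at 0) the log2 change of KO less WT is drawn against the distance of each tested gene's start site in kb, counted along the member's strand, with filled points past the threshold and open points not. Oasl2 and Oas1a exceed the genes around them, Psmb8 is exceeded by H2-Ab1 and H2-Eb1, and Cmpk2 and Rsad2 fall beside neighbours that rise.

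The deposited table also placed nuclei in Early, Int and Late classes, and the KO effect was fitted within Int and within Late nuclei. These classes held different clusters by genotype: Int nuclei were mostly of clusters C6, C9 and C11 in WT and C5, C8 and C10 in KO, and Late nuclei of C3 in WT and C2 in KO. In Int nuclei 14 of 38 tested members were higher and 3 lower, beside 12.7% and 7.10% of all genes (no filter: 13 and 2 of 40, beside 9.93% and 4.96%). The median change was 0.16 over the members and 0.06 over all genes; after median centring 9 were higher and 8 lower, beside 6.95% and 21.6% of all genes. In Late nuclei 18 of 36 tested members were higher and 7 lower, beside 32.9% and 18.5% of all genes (no filter: 20 and 7 of 40, beside 35.9% and 12.1%). The median changes were 0.13 and 0.05, and after median centring 12 were higher and 9 lower, beside 25.9% and 28.2% of all genes. Isg20 and Parp9 were among the lower and Ifi35 among the higher members in Late nuclei. The calls of Isg20 and Ifi35 each ended under 9 of 17 alternative settings, and that of Parp9 under 1. In Int nuclei the call of Ifit1 ended under 8 of 18 settings and that of Eif2ak2 under 4. A fit on the nuclei of cluster C5 alone, of which 99.1% were Int, gave no call of a member, as described below. In Late nuclei, the signs of Ddx58 (0.31), Gbp3 (0.31) and Nlrc5 (0.30) turned negative after quantile normalization, and those of Ddx58 and Gbp3 after cyclic loess.

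Oasl2 led in both classes. Its scores were 7.62, 6.79 and 5.10 in WT and 15.9, 18.1 and 13.5 in KO among Int nuclei (log2 change 1.17, SE 0.16), and 13.2, 10.96 and 9.68 against 34.8, 39.2 and 28.1 among Late nuclei (1.51, SE 0.12). Xaf1 scored 24.1, 23.4 and 24.8 in WT and 36.8, 50.04 and 38.6 in KO Late nuclei (0.76, SE 0.09). Oas1a, Mx1, Zbp1, Psmb8 and Cxcl10 were higher by 0.58 to 0.78 in Int and by 0.54 to 0.94 in Late nuclei. Oas1a in both classes and Mx1 in Late nuclei had WT means of 3.25 to 4.06 and passed the filter through their KO values, so that they had to differ. Tap1, Psmb9 and B2m were higher in Late nuclei by 0.34, 0.29 and 0.19 and their libraries did not overlap there. Single libraries decided some of these calls: in Int nuclei Oas1a did not pass without WT library 3 (0.63) nor Psmb8 without KO library 1 (0.46), and in Late nuclei B2m did not pass without WT library 3 or KO library 1 (0.13 to 0.14), nor Gbp3 without any library other than WT library 2 (0.22 to 0.35), nor Ddx58 without WT library 1 or 3 or KO library 2 or 3 (0.26 to 0.31). Mx2 and Gbp2 fell under the filter in Late nuclei, with WT scores of 2.48 to 3.72 and 2.64 to 3.26 and KO scores of 5.01 to 7.10 and 5.27 to 6.03.

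In Late nuclei, KO library 2 was the highest KO library for 21 of 36 tested members (58.3%) and for 29.7% of all genes tested. WT library 1 was likewise the highest WT library for 21 members (58.3%) and for 35.7% of all genes. KO library 1 was the lowest KO library for 20 members (55.6%) and for 31.2% of all genes. Ifi44 scored 6.92 in KO library 2 against 2.42 and 2.25 in the other KO libraries and 1.11 to 2.04 in WT. Isg15 scored 354 there against 290 in KO libraries 1 and 3. Leaving KO library 2 out brought the higher members in Late nuclei from 18 of 36 tested to 13 of 35. The share of all genes went from 32.9% to 27.9%. Isg15 (from 0.20 to 0.10) and Ddx58 were among the calls that ended, and Oas1a fell under the filter and was not tested.

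Whether the KO effect differed between classes was tested on the Late less Int difference within each library. Of 36 tested members 1 had a positive and 3 a negative difference of effects, beside 4.20% and 2.21% of all 15873 genes. Among Int nuclei Ifih1 scored 66.1, 62.1 and 66.3 in WT and 56.4, 63.1 and 61.8 in KO, which overlapped, and among Late nuclei 64.6, 61.7 and 53.2 against 43.4, 44.8 and 45.9, which did not (difference of effects -0.31, SE 0.08, adjusted p = 0.017). Cmpk2 scored 135, 128 and 125 against 98.9, 103 and 97.4 in Int nuclei and 142, 126 and 120 against 85.6, 78.4 and 86.0 in Late nuclei (-0.25, SE 0.06, adjusted p = 0.012). It was lower in KO in both classes, and more so in Late.

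Trim25, a ubiquitin ligase that acts on RIG-I, was higher in KO Int nuclei (57.7, 58.0 and 57.6 against 65.9, 71.4 and 71.0) but overlapped in Late nuclei (66.0, 58.6 and 59.3 against 60.4, 61.0 and 62.1; difference of effects -0.26, SE 0.06, adjusted p = 0.017). Isg15 overlapped in Int nuclei (255, 248 and 257 against 232, 264 and 244) and was higher in KO Late nuclei (289, 265 and 256 against 290, 354 and 290; 0.24, SE 0.06, adjusted p = 0.011). KO library 2 stood at 354, while the other KO libraries were within 2 units of WT library 1. In nuclei of 5000 to 15000 fragments, where the depths of the genotypes are closer, the calls of Ifih1 and Isg15 ended. There 0 members had a positive and 2 a negative difference, beside 2.07% and 0.79% of all genes. None of the 4 calls remained without the variance trend of the fit or without KO library 2, where the differences were -0.25 to -0.28 (Ifih1), -0.18 to -0.21 (Cmpk2), -0.21 to -0.26 (Trim25) and 0.19 (Isg15) over the fits that ended them by leaving out a library. Those of Ifih1, Cmpk2 and Trim25 also ended without WT library 1, that of Ifih1 without WT library 2 and that of Trim25 without KO library 3.

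**Figure D4:**
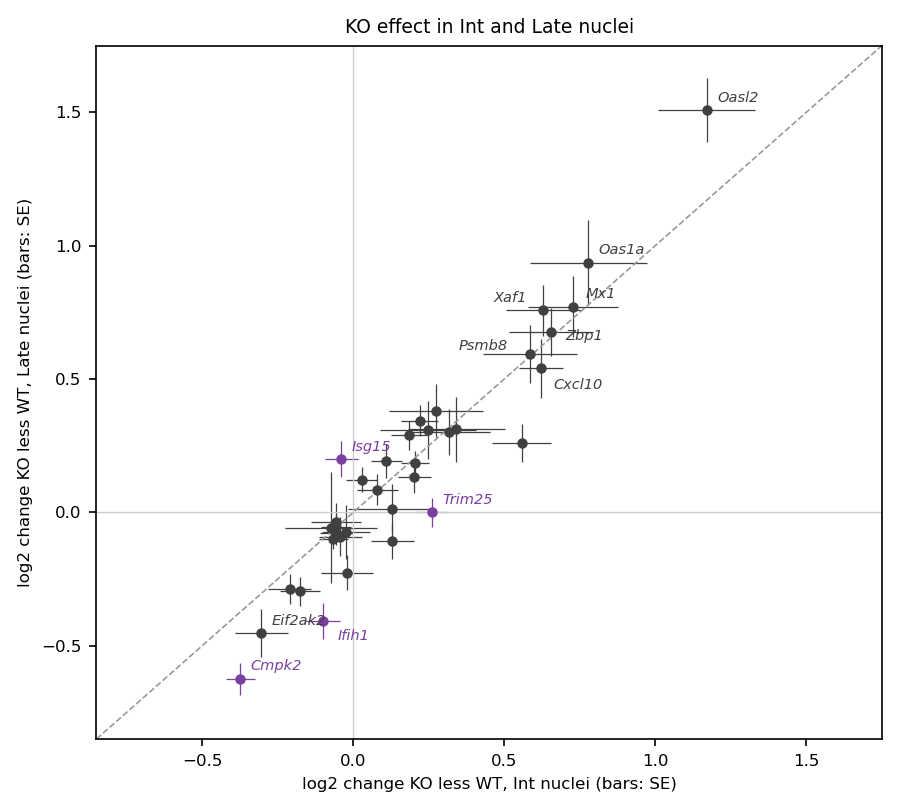
Each point is a member tested in both classes, with its log2 change of KO less WT in Int nuclei (x axis) and Late nuclei (y axis), bars for the SE and a dashed line of equal change. Ifih1, Cmpk2 and Trim25 (purple) lie below the line and Isg15 above it; Gbp3, Ddx58 and Nlrc5, unlabelled near 0.3, changed sign in Late nuclei under quantile normalization.

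Clusters filled by both genotypes were also compared within the cluster. The clusters were made from these nuclei, so WT and KO nuclei of 1 cluster were grouped for being alike. This limits what a comparison within a cluster can show. Cluster C5 (Int) held 143 to 261 WT and 528 to 598 KO nuclei per library, and 0 of 38 members passed there with limma, beside 0.890% of 19438 genes; 6 members (15.8%) and 13.4% of all genes had an unadjusted p under 0.05. Oasl2 scored 5.13, 4.20 and 7.98 in WT and 12.0, 19.0 and 13.4 in KO (log2 change 1.24, adjusted p = 0.14), without overlap. Cmpk2 scored 124, 138 and 139 against 100.1, 97.3 and 95.5 (-0.45, adjusted p = 0.083), also without overlap. Eif2ak2, in contrast, spread from 16.8 to 38.8 in WT and overlapped its KO values of 18.9 to 21.0.

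Cluster C2 (Late) held only 58 to 68 WT nuclei per library beside 2134 to 2490 KO nuclei. No member of 38 passed with limma, where 0 of all 17360 genes did; 4 members (10.5%) and 2190 genes (12.6%) had an unadjusted p under 0.05. Oasl2 was listed at 18.8, 0 and 18.2 in WT and 34.9, 38.8 and 28.5 in KO. The value of 0 came from 58 nuclei, which allows a share of nuclei with an Oasl2 score above 0 of up to 5.17% (3 counts of the total, counting error only). In the clusters of 1 genotype, mean Oasl2 scores were 4.40 (C6), 5.78 (C11), 10.8 (C9) and 11.4 (C3) in WT and 14.5 (C10) and 17.6 (C8) in KO. No test was run there, since it would compare different clusters that were made from these nuclei.

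**Figure D5:**
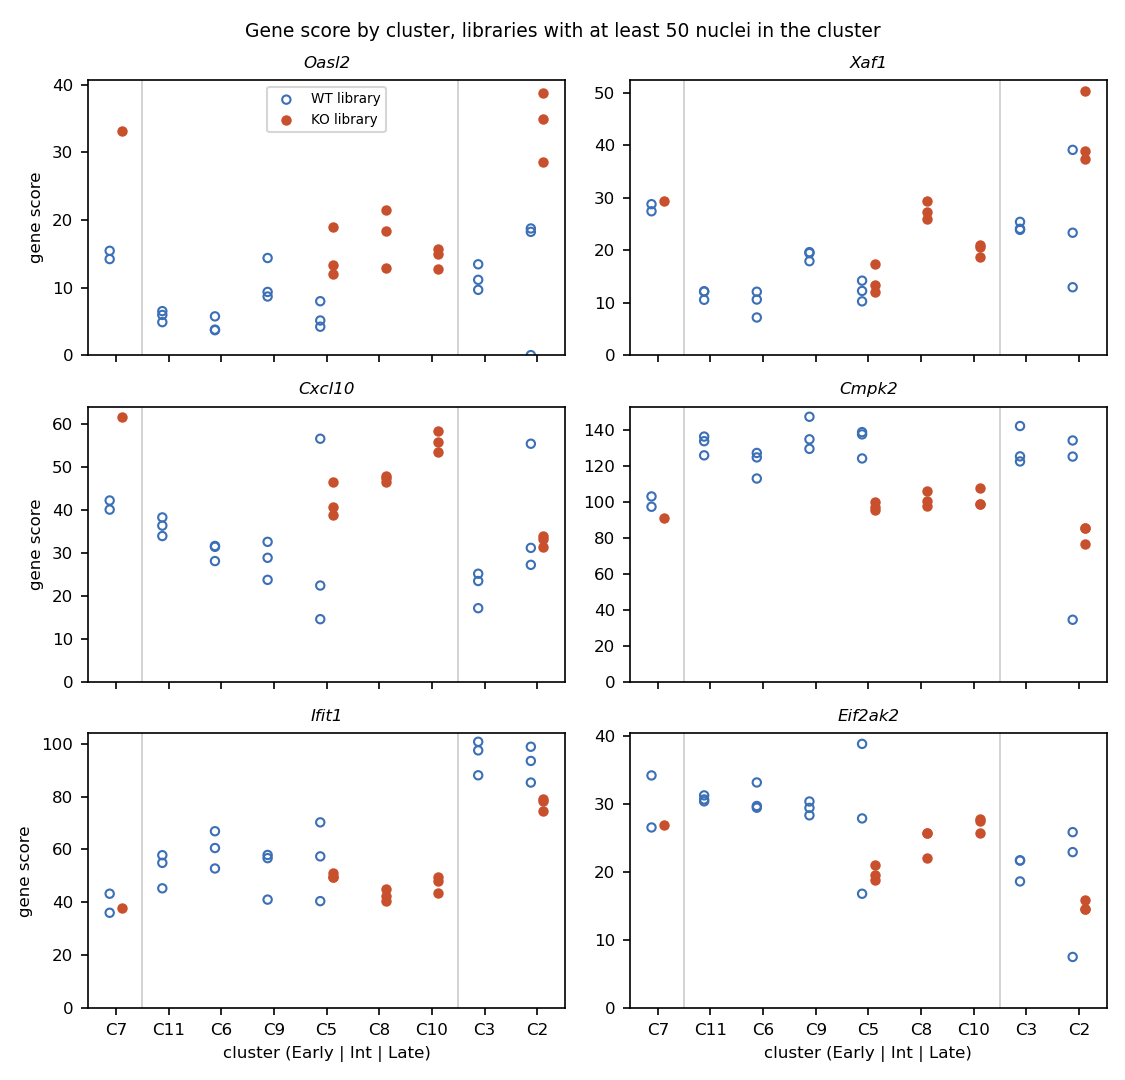
Gene scores (y axes, from 0) of 6 members are drawn by cluster, with Early, Int and Late clusters separated by grey lines, and 1 point per library with at least 50 nuclei in the cluster (open WT, filled KO). KO libraries lie above WT for Oasl2 in C5 and C2, and below for Cmpk2 in C5.

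Shares of nuclei with a score above 0 were compared at like depth, over Late nuclei with 5000 to 15000 fragments (median 7025 to 7893 per library). Oasl2 was above 0 in 11.6%, 8.63% and 8.04% of WT and 20.8%, 23.5% and 21.7% of KO nuclei. The Oas1a shares were 2.70%, 2.46% and 2.01% against 4.98%, 7.497% and 5.20%, and those of Xaf1 15.9%, 15.7% and 16.2% against 22.6%, 28.0% and 23.6%. For Cmpk2 they were 70.8%, 68.6% and 62.6% against 52.8%, 51.4% and 53.6%, and for Ifih1 57.2%, 54.8% and 48.2% against 40%, 38.9% and 43.5%. These 5 were picked from the members described above. Among Int nuclei in the same range of fragments, the Ifih1 shares overlapped, with 56.4%, 59.2% and 60.8% in WT and 54.0%, 53.6% and 57.2% in KO. Over all depths the Oasl2 shares were 10.1%, 9.18% and 5.85% in WT and 21.7%, 19.6% and 17.2% in KO.

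Int and Late nuclei were also set beside each other within libraries. The classes were made by the authors from the same nuclei, so the counts are a description: 15 of 36 members were higher and 13 lower in Late, beside 33.0% and 47.3% of all genes, with both genotypes weighted equally. The counts moved with the scaling: 19 were higher and 9 lower after quantile normalization, 19 and 10 after cyclic loess, and 19 and 11 after median centring, beside 42.8% and 35.4%, 39.7% and 38.1%, and 44.1% and 36.7% of all genes. The share of all calls that were higher went from 41.1% to 54.8%, 51.0% and 54.6%. Rsad2 and Ifit1 were higher in Late nuclei of all 6 libraries, by 0.92 and 0.75. Xaf1 and Oasl2 were also higher in all 6, by 0.90 and 0.89, and both rose with the KO genotype as well. Eif2ak2 (-0.62), Cxcl10 (-0.58), Nlrc5 (-0.50), Tap1 (-0.46) and Psmb9 (-0.45) were lower in Late nuclei of all 6 libraries. These 9 kept their direction under each scaling run. Of the 5 antigen presentation genes, 4 were lower in Late than in Int nuclei, of which B2m (-0.17) did not pass after median centring (-0.04).

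Early nuclei were too few for a test, with 50 or more only in WT libraries 1 and 2 and KO library 1 (102, 235 and 310 nuclei). Oasl2 scored 15.0 and 15.7 in these WT libraries and 33.6 in KO. Psmb8 scored 47.3 and 44.0 against 67.8, and Cxcl10 35.9 and 43.5 against 62.4. Cmpk2 scored 103 and 100.2 against 92.1. Other members lay closer: Xaf1 scored 28.8 and 27.6 against 29.96, Eif2ak2 30.4 and 26.4 against 27.2, and Ifih1 55.2 and 51.8 against 51.7.

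Of 21 other genes of the interferon pathway (receptors, kinases, transcription factors, inhibitors and adaptors), 20 were tested in all nuclei, and 6 were higher and 2 lower in KO libraries (30% and 10%), shares close to the 29.1% and 14.2% of all genes. The receptor chains Ifnar1 (117, 117 and 119 against 96.7, 104 and 107) and Ifnar2 (108, 104 and 102 against 87.3, 87.1 and 92.2) fell by 0.20 and 0.23 without overlap. The transcription factor Irf1 rose most, by 2.43. The feedback inhibitors Socs3 and Socs1 rose by 1.06 and 0.62, with 31.1, 34.2 and 29.2 against 65.9, 62.9 and 71.9 for Socs3. The adaptors Ticam1 and Tmem173 (STING) each rose by 0.23. The transcription factor Irf9 (-0.015) did not pass, nor did Irf3, Irf7, Jak1, Jak2, Tyk2, Ifngr1, Ifngr2, Mavs, Tbk1, Cgas and Myd88. Tlr3, the endosomal sensor of double-stranded RNA, was below the filter.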

How the data were processed

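Gene scores were deposited by the authors as a signal per gene and nucleus, scaled to a sum of about 10000 per nucleus; how fragments were weighted by distance is not given in the sources used here. The deposited table of nuclei gave counts of fragments, scores such as the enrichment at start sites, shares in peaks, classes and clusters, per the file headers. Cell Ranger and mm10 are named in the submitters' processing notes. The score matrix carries no gene names, and its 24333 rows were named in the order of the deposited feature table. Each nucleus was listed 2 times and used 1 time; no doublets were removed here.

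Scores of 34073 nuclei were averaged per library, rescaled to a sum of 1000000, and log2(value + 1) was fitted with limma 3.58.1 in R 4.3.3 (variance trend, two-sided, Benjamini-Hochberg adjustment over all genes tested, threshold 0.05). Genes with a mean of at least 5 were tested. Class effects were fitted on the Late less Int difference within libraries, with the trend on the mean log2 level. The scripts were tested on simulated data. Tables were handled in Python 3.11.15 with pandas 2.3.3 and scipy 1.17.1.

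The members, lists and tests were chosen with earlier results of these data known. Values in every library are given for the 10 largest changes past the threshold, for members that went against their role group and for those past the threshold in the Late less Int test; the pathway genes and neighbours named beyond the 3 largest changes of the list and the largest change near a member were chosen after their values were seen. Alternatives covered the pseudocount, filter, scaling, variance trend, replicate block, single libraries, depth and clusters. The RNA, stem and progenitor, CUT&RUN and Hi-C samples were not analysed here. Of the pathway list, 1 gene is counted but not reported here.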

Additional observations from a re-analysis of the deposited data

Results flagged for a closer look

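The effect of the KO genotype differed between Late and Int nuclei for 4 of 36 tested members, beside 6.41% of all genes. The difference itself was tested (limma on the Late less Int difference within libraries, 3 against 3). The differences were -0.31 for Ifih1, -0.25 for Cmpk2, -0.26 for Trim25 and 0.24 for Isg15. Cmpk2 was lower in KO in both classes and more so in Late, and Ifih1 was lower without overlap in Late only. Trim25 was higher in KO in Int and overlapped in Late, while Isg15 overlapped in Int and was higher in KO in Late. Ifih1 was lower in Late than in Int nuclei in all 6 libraries and Cmpk2 in 5 of 6. All 4 calls ended without KO library 2 and without the variance trend. Those of Ifih1 and Isg15 also ended in nuclei of 5000 to 15000 fragments. This left 0 members with a positive and 2 with a negative difference, beside 2.07% and 0.79% of all genes. The cause was not tested.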

How the results depend on the processing

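In all nuclei, a filter at a mean of 20 left 8 of 26 tested members higher, beside 18.3% of all genes. Median centring gave 12 lower, beside 31.2% of all genes. Weighting nuclei by fragments gave 10 higher and 3 lower, beside 8.17% and 4.63%. Calls in either direction over all genes went from 43.3% to 41.0%, 48.2% and 12.8%. In Int nuclei, the filter at 20 left 6 of 25 tested members higher, beside 15.5% of all genes. Median centring gave 9 higher and 8 lower, beside 6.95% and 21.6%. Fitting no variance trend gave 8 higher, beside 8.00%, and cluster C5 alone gave 0 and 0, beside 0.412% and 0.478%. Calls in either direction over all genes went from 19.8% to 28.8%, 28.5%, 9.87% and 0.890%. In Late nuclei, the filter at 20 left 10 of 26 tested members higher, beside 18.9% of all genes (calls in either direction went from 51.4% to 46.1%). For the Late less Int effect, a pseudocount of 4 gave 2 higher, beside 3.31% of all genes. Nuclei of 5000 to 15000 fragments gave 0 higher, beside 2.07%. No variance trend, chosen after seeing the data, gave 0 higher and 0 lower, beside 1.21% and 0.088%. Calls in either direction over all genes went from 6.41% to 5.34%, 2.86% and 1.30%. The filter tests fewer members; for the other settings the cause was not tested.

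Leaving out 1 library gave 13 to 18 higher and 5 lower in all nuclei, 10 to 15 higher and 1 to 4 lower in Int (1 without WT library 1), 13 to 17 and 6 to 7 in Late, 0 to 2 higher (0 without KO library 2, 2 without WT library 3) and 0 to 3 lower (0 without WT library 1 and without KO library 2) for the Late less Int effect, and 14 to 15 and 13 to 15 for Late against Int. Over all genes the calls higher ranged from 19.3% to 35.5%, 8.27% to 17.0%, 27.9% to 30.8%, 1.21% to 9.39% and 31.5% to 32.5%, and the calls lower from 10.4% to 13.1%, 4.66% to 7.52%, 14.0% to 18.3%, 0.656% to 4.38% and 44.0% to 49.9%. With a replicate block the counts of higher and lower were 19 and 5 in all nuclei, 15 and 4 in Int, 17 and 6 in Late, 1 and 4 for the Late less Int effect, and 15 and 14 for Late against Int, beside 27.8% and 14.4%, 15.0% and 8.29%, 32.6% and 17.6%, 5.80% and 3.25%, and 33.4% and 48.1% of all genes. The labels do not say whether the numbers pair the libraries. Deviations from the group means correlated by -0.12, -0.27 and 0.21 for numbers 1, 2 and 3. Only the libraries of number 3 correlated best with their own number. With 3 libraries a group, these correlations cannot decide whether libraries were paired.

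Signs turned as follows. In Late nuclei, quantile normalization gave -0.28 for Oas2, -0.062 for Ddx58, -0.049 for Gbp3 and -0.0020 for Nlrc5, and cyclic loess -0.078 for Ddx58 and -0.045 for Gbp3. For Late against Int, quantile normalization gave 0.037 for Ddx58, 0.20 for Ifit2, 0.059 for Mx1, 0.010 for Gbp3, 0.19 for Parp9 and 0.27 for Psmb8. Cyclic loess gave 0.28 for Oas1a, 0.031 for Ddx58, 0.15 for Ifit2, 0.089 for Mx1, 0.15 for Parp9, 0.21 for Psmb8 and -0.0097 for Stat2. The depth window gave 0.15 for Parp9 and -0.022 for Stat2, and median centring, chosen after seeing the data, 0.076 for Trim25 and 0.12 for Parp9. Under every setting run, 6 of 23 calls held in all nuclei, 9 of 25 in Late and 19 of 28 between classes. None held under every setting in Int or for the Late less Int effect. Another 5 in all nuclei and 5 in Late held wherever they were tested. Among these, Gbp2, Mx1 and Oas1a in all nuclei and Mx1 and Oas1a in Late passed the filter through their KO values, so that they had to differ. In Int, the calls of Oasl2, Zbp1, Mx1, Xaf1, Cmpk2, Parp14 and Cxcl10 ended only in cluster C5 alone, where 0.890% of all genes were called. Apart from cluster C5 and the fits without 1 library, 9 of 17 calls in Int held wherever they were tested. Scores carry no fragment counts per gene, so depth limits low members without a stated interval.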
